A study of Drosophila melanogaster with 20 samples.

Results

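In RNA-seq of *Drosophila melanogaster* embryos without *Ada2b*, 120 genes had, in every null library, a CPM (the raw count scaled to a common library total) that was at least 2 times the highest of all 8 control libraries. They were 120 of the 8362 genes with at least 50 raw counts in each of the 4 null libraries (1.44%), and 17669 genes were counted in all. The genes were chosen by these null and control values, so the difference between null and control embryos is given as a description without a test. The PA and PB libraries did not enter the choice.

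Whole embryos labelled stage 12 to 14 were profiled in 5 genotypes with 4 biological replicates each, and 1 WT replicate was labelled stage 12 to 15. Null embryos carried a pair of different *Ada2b* null alleles, Ada2b1 and Ada2b842, in trans. PA and PB embryos had the same null background with a transgene for the Ada2b-PA or the Ada2b-PB isoform under *Ada2b* regulatory sequences. PA+PB embryos carried both transgenes in that background and were the first control. WT embryos (elav-Gal4 x GFP) did not carry the *Ada2b* alleles and were the second control. All embryos carried the pan-neuronal driver *elav-Gal4* with a GFP reporter, and GFP-positive embryos were picked by hand and pooled. In pools of whole embryos, a change in the number of cells of a type and a change in RNA per cell cannot be told apart.

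Ada2b is a subunit of the histone acetyltransferase modules built around Gcn5, which acetylate histone H3 at active genes. The Ada2b-PB isoform belongs to the SAGA and ADA complexes. The Ada2b-PA isoform belongs to CHAT, which shares Gcn5, Ada3 and Sgf29 with them and has Chiffon as a further subunit of its own. PA embryos therefore lack SAGA and ADA, PB embryos lack CHAT, and null embryos lack every one of these complexes. *Ada2b* itself had 48.0, 55.1, 36.9 and 32.1 CPM in null embryos, 208 to 243 CPM in PA and 97.7 to 214 CPM in PB embryos. It had 207 to 297 CPM in PA+PB and 102 to 148 CPM in WT embryos, so the null libraries were below all others and none was at 0.

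Counts on genes ran between 17513429 and 28661289 in null libraries, 2508357 and 10522137 in PA, 1656080 and 33008038 in PB, 4788765 and 13816521 in PA+PB, and 27684456 and 35367055 in WT libraries. A count of 0 therefore allowed up to 1.81 CPM in the shallowest library, PB replicate 1, and 0.0848 CPM in the deepest, WT replicate 1 (3 counts of the total, for counting error only). The summed CPM of 36 mitochondrial genome transcripts was 11070 to 13386 in null, 146 to 2011 in PA and 222 to 520 in PB libraries, against 9568 to 17944 in PA+PB and 10695 to 19828 in WT libraries. PA and PB libraries thus stood apart from the other 3 genotypes in mitochondrial transcripts. Depth varied within genotypes and also differed between them. Every null and every WT library was deeper than every PA and PA+PB library, while PB libraries reached both below and above the null range. The part of depth or of mitochondrial transcripts in the PA and PB values below was not tested.

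The 120 genes were at very different levels. Their mean null value ran between 2.81 and 2930 CPM, with a median of 23.4 CPM, and 25 genes were under 10 CPM while 16 were over 100 CPM. The ratio of the lowest null to the highest control value was at least 5 in 17 genes, between 3 and 5 in 31 and under 3 in 72, with a median of 2.71. On the scale of log2(CPM + 1), the mean null value exceeded the mean control value by a median of 2.78 over the 120 genes and by 0.87 over the 8362 genes. The 8362 genes were filtered on counts in the null libraries alone, so the 0.87 in part follows from that filter. At any fold, 1525 of the 8362 genes (18.2%) had all 4 null values above all 8 control values. At the 2-fold limit of the rule, the share was 1.44% (120 of 8362 genes). In the opposite direction at that limit, 189 of 4893 genes (3.86%) had a lowest control value at least 2 times the highest null value. These 4893 genes had at least 50 counts in every control, so the shares in each direction are over different sets of genes.

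**Figure D1:**
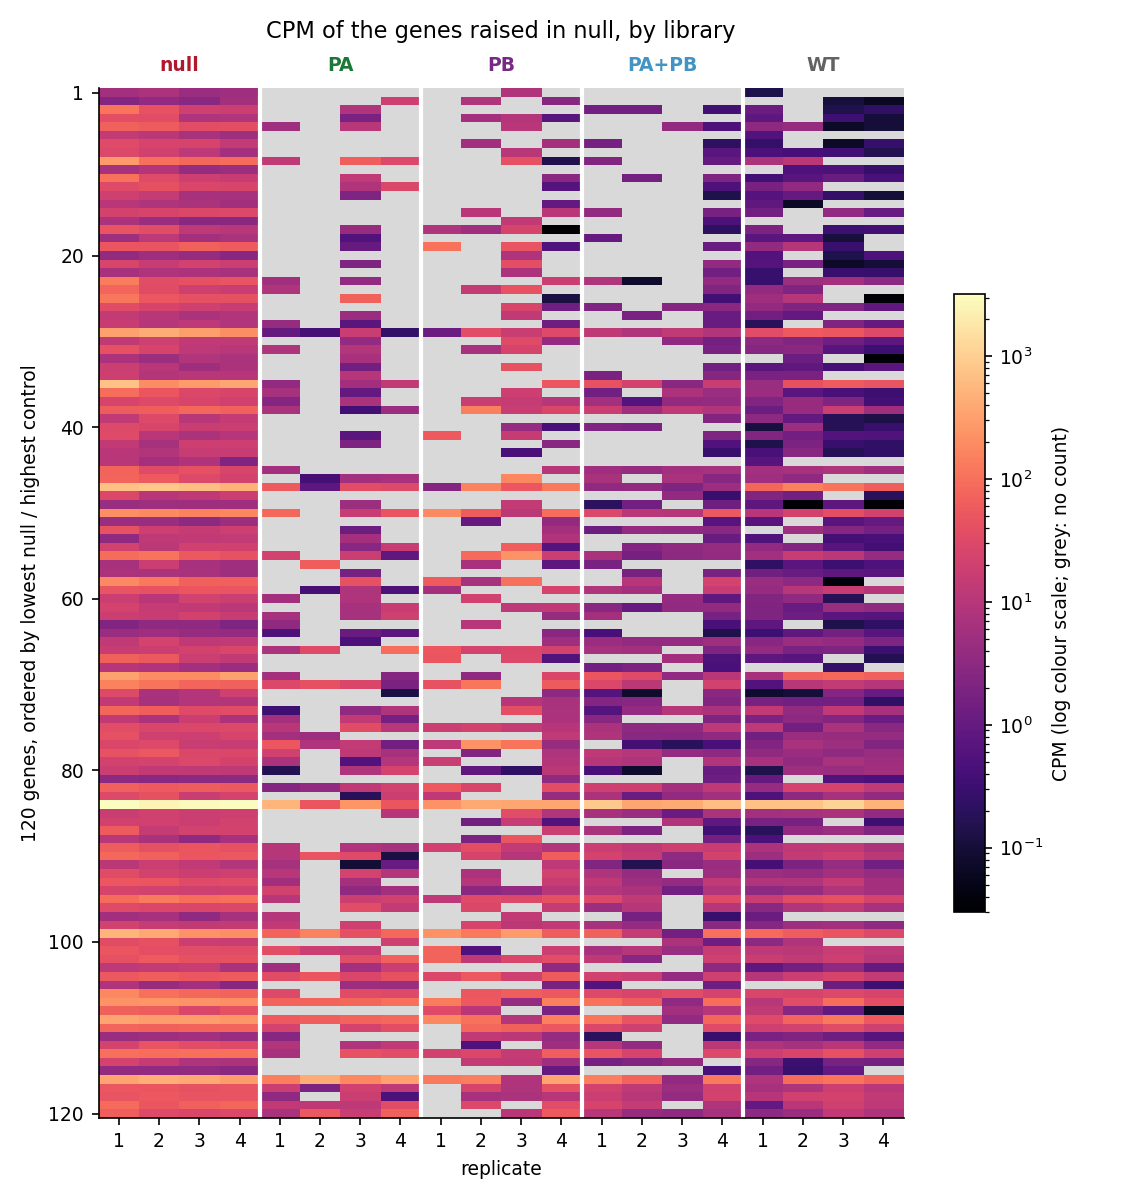
CPM of the 120 genes (rows, ordered by the lowest null value over the highest control value) in the 20 libraries (columns, grouped by genotype), on a log colour scale with grey for no count. The null columns hold a count for all 120 genes, while PA libraries hold one for 21 to 80 and PB libraries for 28 to 86.

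2 genes lay just inside the limit of 2. *sofe* had 62.6, 30.6, 27.5 and 29.7 CPM in null embryos and at most 13.7 CPM in a control library. *E(spl)mdelta-HLH*, a Notch-responsive bHLH repressor, had 87.9, 49.8, 67.7 and 78.7 CPM in null embryos and at most 24.8 CPM in a control library. Just outside it, *Ocho*, a Bearded family gene, had 125 to 188 CPM in null and up to 63.1 CPM in control libraries. *Orc4*, a subunit of the origin recognition complex, had 37.0 to 61.6 CPM in null and up to 18.8 CPM in control libraries.

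The number of genes depended on the scaling between libraries. With TMM library sizes, 75 genes met the rule, all of them among the 120, and with DESeq2 size factors 109 did, of which 100 were among the 120. At any fold, 1013 of the 8362 eligible genes were above all controls after TMM (12.1%) and 1456 after size factors (17.4%). Over the 3039 genes with a count in every library, the median difference of null minus control embryos was 0.17 (log2) on the CPM scale, -0.06 after TMM and 0.04 after size factors. In the edgeR quasi-likelihood fit over 10904 genes, with 1 factor of unwanted variation, no gene was called higher in null than in both controls (0.0%), and 13 of the 120 genes passed an unadjusted p of 0.05 in that direction, as did 0.926% of all genes. DESeq2 called 7 of the 120 genes (0.578% of all genes). The rule used this contrast, so these counts carry no weight for the genes. The paper's own edgeR analysis did call genes between null embryos and both controls, so the absence of edgeR calls here holds for this fit only.

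Among the 12 genes with the largest ratios, the null values were low to moderate and most control libraries had no or few counts. *Acsx1R* (chromosome arm 3R, 19775459 to 19777280, build BDGP6.54, the same assembly as dm6) had 5.77, 7.23, 4.74 and 5.13 CPM in null embryos. It was at 0 in every PA library and in 3 PB libraries, while PB replicate 3 had 8.52 CPM. Its only control library with a count was WT replicate 1, at 0.141 CPM (5 counts), which gave the largest ratio of all, 33.5. *CG15177* had 2.50, 3.59, 2.85 and 6.21 CPM in null embryos, and its highest control value, 0.108 CPM, was 3 counts.

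*CG18180* had 114.9, 43.9, 19.5 and 17.4 CPM in null libraries. It had 8.17 CPM in PA replicate 3, no count in the other PA libraries or in any PB library, and at most 1.46 CPM in controls, a ratio of 11.9. *CG33128* had 39.5, 37.8, 7.99 and 8.62 CPM in null libraries, with no count in any PA+PB library and at most 0.792 CPM in WT. Both genes were higher in null replicates 1 and 2 than in replicates 3 and 4.

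*CG17362* had 14.3, 11.2, 6.85 and 5.13 CPM in null embryos. No PA or PB library had a count for it, and a single control library did, at 0.594 CPM. *CG13361* had 14.3 to 32.9 CPM in null embryos and at most 1.67 CPM in controls. *CG10918* had 6.18 to 29.8 CPM in null embryos and at most 0.724 CPM in controls. *CG10035* had 107, 33.0, 18.7 and 15.8 CPM in null embryos and at most 2.17 CPM in controls. *CG18180*, *CG17362* and *CG13361* lie within *fry*, *CG17364* and *CG5254* on the other strand and *CG10918* lies within *DIP-beta* on the same strand. Whether the libraries kept the strand was not given in the sources used here, so the counts of overlapping genes are uncertain.

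Digestive serine proteases of the Jonah and trypsin families were the largest group. Jonah genes encode chymotrypsin-like and trypsin-like enzymes of the gut, where they break down dietary protein in the feeding larva. Of 32 such genes in the table, 18 had at least 50 counts in every null library, 13 of these were above all controls at any fold (also 13 after TMM or size factors), and 12 were among the 120. The summed CPM of the 32 genes was 416 to 940 in null, 0 to 215 in PA, 4.09 to 492 in PB, 14.7 to 85.8 in PA+PB and 1.41 to 95.7 in WT libraries.

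*Jon99Ciii* had 282, 102, 85.5 and 93.1 CPM in null libraries. It had 12.9, 0, 63.7 and 29.1 CPM in PA and 0, 0, 40.8 and 0.151 CPM in PB libraries, against 0 to 2.30 CPM in PA+PB and 0 to 11.3 CPM in WT libraries. All null libraries were thus high, 3 PA libraries lay above the highest control, and 1 PB library did.

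*Jon25Biii* had 186, 127, 68.9 and 67.3 CPM in null libraries. It had 43.6 CPM in PA replicate 3 alone and 59.2, 6.68, 102 and 0 CPM in PB libraries, against at most 23.7 CPM in PA+PB and 4.50 CPM in WT libraries. The PB values spanned the whole range between none and the null level.

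*Jon99Cii* had 118.8, 51.7, 40.3 and 41.0 CPM in null libraries. It had 69.5 CPM in PA replicate 3, no count in the other PA libraries and at most 0.121 CPM in PB, and its highest control value was 9.51 CPM in WT replicate 2. The PA and PB counts of this gene thus came from single libraries.

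*Jon99Fii* had 68.1, 59.5, 37.4 and 39.7 CPM in null libraries. It had 4.98 and 10.3 CPM in 2 PA libraries and 10.8 CPM in PB replicate 3, against at most 3.997 CPM in controls. *Jon25Bi*, with 25.4 to 43.4 CPM in null libraries, had 8.55 and 29.0 CPM in 2 PA libraries and 0.636 CPM in 1 PB library, against at most 3.57 CPM in controls. The PA and PB counts of these genes came from a few libraries each, and the other libraries had none.

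The other 7 proteases (*Jon25Bii*, *epsilonTry*, *betaTry*, *Jon99Fi*, *Jon44E*, *Jon99Ci* and *Jon65Ai*) had null values between 2.20 and 40.1 CPM. *betaTry*, a digestive trypsin, had 13.1, 31.2, 10.3 and 15.3 CPM in null libraries, no count in any PA or PB library and at most 3.08 CPM in controls. *Jon65Ai* had no count in PA, PB or PA+PB libraries and 0.679 CPM in 1 WT library. *Jon25Bii* had 20.2 CPM in PA replicate 4 and no count in the other PA and all PB libraries. Of the 6 eligible proteases that were not among the 120, *alphaTry* had 8.20 to 19.1 CPM in null libraries and 62.9 CPM in PB replicate 3. Jonah and trypsin genes are close in sequence. The study left out reads without a unique alignment, so reads shared between copies may be missing from these counts.

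**Figure D2:**
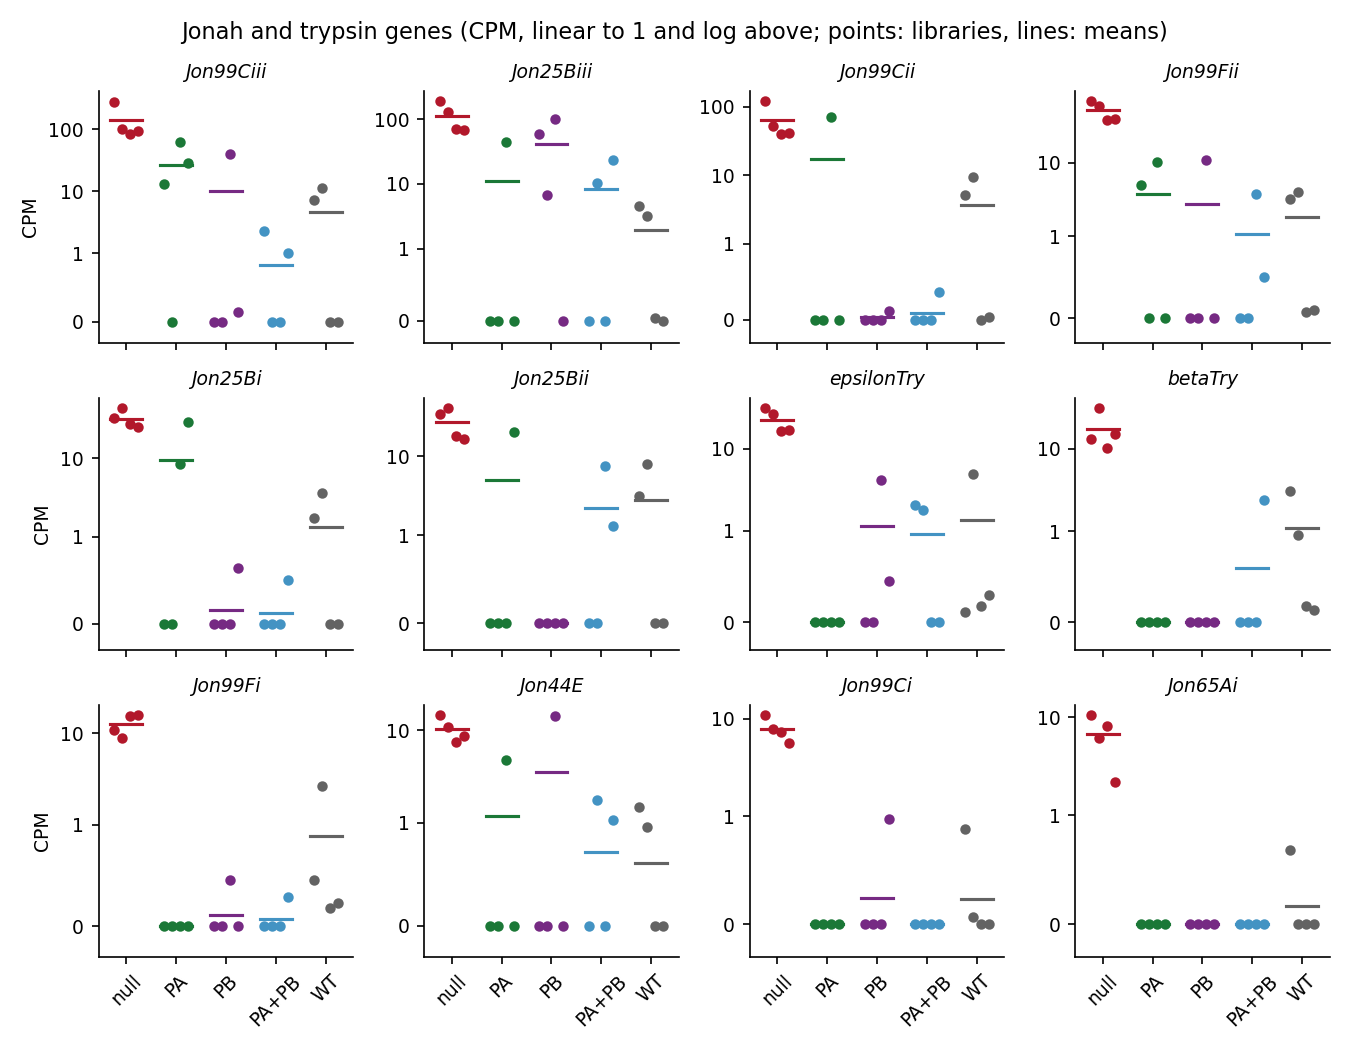
CPM of the 12 Jonah and trypsin genes (1 panel each, linear up to 1 CPM and logarithmic above) in null, PA, PB, PA+PB and WT embryos, with a point for each library and a line at the genotype's mean. The null points lie above all PA+PB and WT points in every panel, as the rule required, while PA and PB points are mostly at 0 with single libraries near the null level, such as 69.5 CPM for *Jon99Cii* in PA replicate 3.

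Several of these proteases are neighbours in the genome. *Jon25Biii*, *Jon25Bii* and *Jon25Bi* lie between 4949941 and 4955144 on arm 2L. *Jon99Ciii*, *Jon99Cii* and *Jon99Ci* lie between 29922216 and 29926189 on arm 3R, and *Jon99Fii* and *Jon99Fi* between 30487016 and 30489895 on the same arm. *epsilonTry* and *betaTry* lie between 11345237 and 11347395 on arm 2R. Among all 120 genes, 23 fell into 10 groups of 2 or 3 genes within 20 kb of each other.

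Other midgut markers mostly overlapped with the controls. Of 6 midgut markers, *betaTry* was the only one among the 120 and 2 were above all controls. The markers' summed CPM was 246 to 305 in null, 85.3 to 542 in PA, 237 to 663 in PB, 17.8 to 239 in PA+PB and 78.8 to 275 in WT libraries, so null libraries overlapped with WT and lay within the PB range. The endoderm factor *GATAe* averaged 66.2 CPM in null, 77.4 CPM in PA and 158 CPM in PB, against 33.7 CPM in PA+PB and 38.4 CPM in WT embryos. *alphaTry* was at 0 in 12 and *betaTry* in 11 of the 20 libraries. The part of midgut cell number in the protease values was not tested.

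Small non-coding RNAs formed the next group. Box C/D and box H/ACA small nucleolar RNAs (snoRNAs) guide the cleavage and the chemical modification of ribosomal RNA, and most in flies are released from introns of host genes. Of 305 snoRNA and small nuclear RNA genes, 108 were eligible, 56 of these were above all controls (42 after TMM or size factors) and 10 were among the 120. Their summed CPM was 9166 to 15029 in null, 2719 to 4347 in PA, 3773 to 6993 in PB, 3965 to 7587 in PA+PB and 4320 to 7083 in WT libraries.

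*snoRNA:U3:54Ab*, a copy of the U3 snoRNA that takes part in the processing of the ribosomal RNA precursor, had 718, 811, 676 and 487 CPM in null embryos. It had 57.5, 0.797, 36.8 and 31.6 CPM in PA and 2.42, 158, 49.98 and 124 CPM in PB embryos. The controls differed from each other, with 3.34, 3.64, 2.07 and 4.92 CPM in PA+PB and 80.2, 154, 111 and 62.6 CPM in WT embryos, which did not overlap.

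*snoRNA:U3:54Aa*, the neighbouring U3 copy, had 341, 431, 315 and 212 CPM in null embryos. It had at most 16.3 CPM in PA and 35.5 CPM in PB embryos, against 7.93 to 13.02 CPM in PA+PB and 31.7 to 55.5 CPM in WT embryos. The tRNA gene *tRNA:Leu-AAG-1-3* lies between these copies (17143521 to 17145826 on arm 2R for the 3 genes). It had 10.2, 8.34, 5.71 and 4.75 CPM in null embryos, no count in PA or PB, and at most 1.94 CPM in controls. It was the only eligible gene of 295 tRNA genes in the table. U3 copies are nearly identical, and reads without a unique alignment were left out, so the level of either copy is uncertain.

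The other 8 snoRNAs lie within host genes. *snoRNA:Psi28S-1060*, within *RpL17*, had 178, 100, 82.2 and 73.3 CPM in null embryos. It had 30.7, 0, 33.7 and 31.2 CPM in PA and 0, 50.5, 64.3 and 54.5 CPM in PB embryos, against 23.96 to 35.6 CPM in controls, so 3 of 4 PB libraries lay above the controls. *snoRNA:Psi28S-2876*, within *RpS5a*, had 39.9 to 60.9 CPM in null and 7.67 to 18.5 CPM in control embryos. *snoRNA:Psi28S-3305b*, within *Hrb98DE*, had 6.45, 9.02, 3.997 and 4.78 CPM in null embryos. It had no count in PA, PB or PA+PB libraries and at most 0.531 CPM in WT. *snoRNA:Psi18S-1377a* and *snoRNA:Psi28S-2626* both lie within *RpS7*. They had 26.0 to 73.3 and 27.9 to 53.7 CPM in null embryos, and at most 8.16 and 12.3 CPM in controls.

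Heat shock RNAs were among the 120 as well. *lncRNA:Hsromega*, a nuclear RNA that organizes stress-dependent nuclear speckles, had the most counts of all, without correction for gene length. It had 3167, 2509, 2895 and 3151 CPM in null embryos. It had 537, 49.8, 244 and 48.2 CPM in PA and 229, 384, 369 and 375 CPM in PB embryos, against 365 to 864 CPM in PA+PB and 505 to 1136 CPM in WT embryos. It was below the lowest control value in all PA libraries but 1 and in 1 PB library.

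*Hsp68*, an inducible chaperone of the Hsp70 family, had 90.9, 108, 52.9 and 45.3 CPM in null embryos. It had 22.1, 0, 17.7 and 0.867 CPM in PA and 0, 87.6, 243 and 18.2 CPM in PB embryos, against 1.62 to 6.89 CPM in PA+PB and 4.05 to 15.7 CPM in WT embryos. Null libraries were thus above all controls, while PA and PB libraries were spread on both sides of them.

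*Hsp70Aa*, another inducible Hsp70 chaperone, had 27.1, 31.2, 16.3 and 15.8 CPM in null embryos. It had 50.4, 8.37, 14.5 and 1.49 CPM in PA and 12.1, 242, 117 and 4.27 CPM in PB embryos, against 0 to 0.434 CPM in PA+PB and 2.34 to 6.93 CPM in WT embryos. PB replicates 2 and 3 were above every null library for *Hsp70Aa*, and PB replicate 3 was for *Hsp68*. The *Hsp70* copies are nearly identical in sequence, so the level of a single copy is uncertain.

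Of 29 heat shock and chaperone genes, 19 were eligible, 10 were above all controls at any fold (8 after TMM) and these 2 were among the 120. The summed CPM of the list was 6525 to 7546 in null, 5502 to 6842 in PA, 5915 to 10837 in PB, 2396 to 5228 in PA+PB and 2740 to 5174 in WT libraries. For the summed level, the PA and PB libraries also lay above all control libraries.

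**Figure D3:**
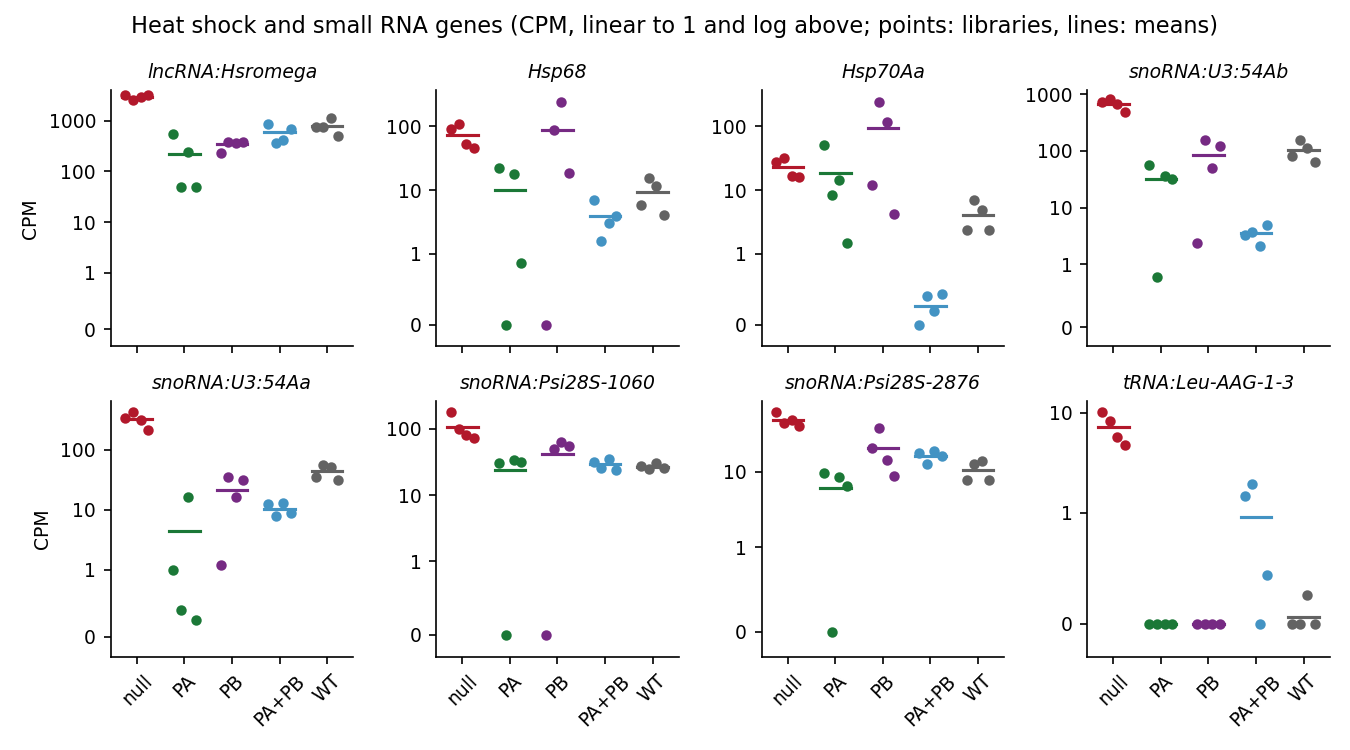
CPM of *Hsromega*, *Hsp68*, *Hsp70Aa*, 4 snoRNAs and 1 tRNA (1 panel each, linear up to 1 CPM and logarithmic above) by genotype, with a point for each library and a line at the mean. *Hsp70Aa* reaches 242 CPM in a PB library, above the 15.8 to 31.2 CPM of the null libraries, while *Hsromega* in PA and PB embryos stays at or below 537 CPM.

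Other long non-coding RNAs followed. Of 111 eligible long and antisense non-coding RNA genes, 37 were above all controls and 5 were among the 120, *Hsromega* included. *lncRNA:marge* had 359, 457, 398 and 295 CPM in null embryos. It had 141, 425, 177 and 340 CPM in PA and 126, 148, 8.29 and 353 CPM in PB embryos, against 3.55 to 145 CPM in PA+PB and 8.20 to 114.8 CPM in WT embryos. PA replicates 2 and 4 and PB replicate 4 were in the null range. *lncRNA:CR45911* had 45.3 to 49.98 CPM in null and 4.93 to 22.3 CPM in control embryos. *asRNA:CR45479* had 7.01 to 16.8 CPM in null and at most 3.40 CPM in control embryos, and it overlaps *Cyp4d14* on the other strand.

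Genes for detoxification were fewer. Cytochrome P450 enzymes oxidize fatty acids, hormones and foreign compounds, and 3 of 37 eligible P450 genes were among the 120, with 12 above all controls (8 after TMM). *Cyp6a8* had 60.7, 63.4, 83.5 and 67.3 CPM in null embryos. It had 6.97, 0, 0.3802 and 4.71 CPM in PA and 0, 145, 16.8 and 27.7 CPM in PB embryos, against 5.18 to 17.3 CPM in PA+PB and 1.27 to 17.99 CPM in WT embryos. *Cyp6a17*, on the same stretch of arm 2R (14873953 to 14889010), had 40.04, 24.3, 11.8 and 10.96 CPM in null embryos and at most 2.90 CPM in controls. *Cyp4p1* had 11.7 to 23.7 CPM in null embryos and at most 4.44 CPM in controls. Of 21 eligible glutathione S-transferase genes, *GstE5* was the only one among the 120, with 5.16 to 7.49 CPM in null embryos and at most 1.81 CPM in controls.

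A further 4 lists held 1 or 2 of the genes. Of 7 eligible histone genes, *His1:CG33801* had 12.3 to 17.2 CPM in null embryos and at most 5.53 CPM in controls. *His3:CG33821* had 3.94 to 5.44 CPM in null embryos and at most 1.55 CPM in controls. Both are copies of the repeated histone cluster, whose reads cannot be placed on a single copy with certainty. *TwdlO*, a cuticle protein of the Tweedle family, was 1 of 45 eligible cuticle genes and had 10.98 to 21.5 CPM in null embryos, with at most 3.95 CPM in controls. *Muc11A*, a mucin, was 1 of 18 eligible mucin and peritrophin genes. It had 47.1, 36.1, 11.9 and 10.6 CPM in null embryos and at most 2.01 CPM in controls.

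The Enhancer of split complex, whose genes are switched on by Notch signalling, was represented by *E(spl)mdelta-HLH* alone, but 9 of its 11 genes were above all controls at any fold (7 after TMM). Their summed CPM was 949 to 1595 in null, 285 to 601 in PA, 38.9 to 964 in PB, 28.7 to 741 in PA+PB and 56.7 to 528 in WT libraries. Another 3 regulators of early neural development were found when the values of the 120 genes were read through, and are named here with those values known. *BobA*, a Bearded family inhibitor of Notch signalling, had 140, 34.9, 42.3 and 46.6 CPM in null and at most 8.14 CPM in control embryos. *ac*, the proneural factor achaete, had 43.8, 18.6, 15.3 and 18.8 CPM in null and at most 5.16 CPM in control embryos. *D*, the Sox factor Dichaete of the neuroectoderm, had 351, 293, 291 and 263 CPM in null embryos. It had 56.7 to 83.3 CPM in PA and 179, 105, 9.21 and 151 CPM in PB embryos, against at most 128.4 CPM in controls.

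*ac* had a count in 1 PA and 1 PB library. Of 10 neuron markers and 8 glia markers, none was among the 120. The neuron markers summed to 1348 to 1618 CPM in null, 293 to 977 in PA, 1244 to 2787 in PB, 121 to 1457 in PA+PB and 409 to 1294 in WT libraries. The glia markers summed to 788 to 833 CPM in null, 422 to 632 in PA, 557 to 859 in PB, 100 to 540 in PA+PB and 329 to 547 in WT libraries. Glia markers were thus above all control libraries in null and in PB embryos, and their part in the neural genes' values was not tested.

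In all, 39 of the 120 genes were in 12 of 47 gene lists, and the other 35 lists held none, 3 of them without an eligible gene. Beyond *Hsromega*, the U3 copies and *marge*, the genes with the most counts in null embryos were *CG4440* and *CG13868*, again without correction for length. *CG4440* had 723, 202, 283 and 376 CPM in null embryos. It had at most 13.9 CPM in PA and 50.05 CPM in PB embryos, against 2.86 to 43.6 CPM in PA+PB and 4.52 to 58.3 CPM in WT embryos. *CG13868* had 537, 394, 226 and 211 CPM in null embryos. It had 40.8 to 157 CPM in PA and 61.2 to 291 CPM in PB embryos, against 1.48 to 101.3 CPM in PA+PB and 30.5 to 87.3 CPM in WT embryos.

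The 4 null libraries did not give the same levels. The highest null value was a median of 1.94 times the lowest over the 120 genes, over 2 times in 55 genes and over 4 times in 12, and null replicate 1 was the highest for 68 genes. The summed CPM of the 120 genes was 11516, 9118, 8385 and 8357 in null libraries, 1108 to 1581 in PA, 1845 to 2512 in PB, 675 to 1998 in PA+PB and 1275 to 2466 in WT libraries. *Hsromega* made up 27.5% to 37.7% of the sum in null, 3.13% to 34.4% in PA, 12.4% to 16.2% in PB, 37.1% to 61.1% in PA+PB and 39.6% to 53.2% in WT libraries.

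As a set, the 120 genes also differed from the eligible genes in properties that the rule did not use. All but 1 gene had an annotation. Of these, 55 (46.2%) had a single exon block, against 11.2% of the eligible genes. Their median exon length was 1240 bases, against 2296 bases, and 9.24% were under 300 bases, against 1.43%. They lay within another gene in 18.5% of cases, against 7.52%. By type, 103 were protein-coding, 10 were snoRNA, 5 were other non-coding RNA and 1 was a tRNA gene. Arm 3R held 31.9% of them and 24.4% of the eligible genes. The shares for length, nesting and type overlap, since the snoRNA genes are short and most of them lie within host genes. These shares are descriptions, and no test was made of them.

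The question for PA and PB embryos was whether the same genes were also high with only CHAT or only SAGA and ADA present. For most, they were not at the null level. The mean PA value was a median of 9.97% of the mean null value over the 120 genes, and the mean PB value was 23.1%. Over the 8362 eligible genes these medians were 67.0% and 79.8%. The PA mean was under 10% of the null mean in 60 genes and over 50% in 11, while the PB mean was under 10% in 38 and over 50% in 29. Of the eligible genes, 10.99% were under 10% and 61.9% over 50% in PA, and 4.16% and 70.7% in PB. The null values that chose the genes are the denominator here, so a low share in part follows from the choice.

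Many of the genes had no count at all. All 4 PA libraries were at 0 for 27 genes (22.5%), against 4.54% of the eligible genes, and all 4 PB libraries for 13 (10.8%), against 0.694%. Both were at 0 for 6 genes. The rule favours genes with low control values, so the excess of zeros over the eligible genes in part follows from the choice. PA libraries had a count for 57, 21, 80 and 54 of the 120 genes and PB libraries for 28, 54, 63 and 86, against 72, 65, 49 and 107 in PA+PB and 113, 99, 101 and 100 in WT libraries. Within PA and within PB, the deepest library had counts for the most genes and the shallowest for the fewest. Between these, the order did not follow depth. PA replicate 4 was deeper than PA replicate 1 (8069430 against 6029564 counts on genes) but had counts for fewer of the 120 genes. The same held for PB replicate 2 against PB replicate 3 (5685029 against 4342043) and for PA+PB replicate 3 against PA+PB replicate 1 (10137185 against 4788765). A count of 0 in PA or PB was often not distinguishable from a low level.

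**Figure D4:**
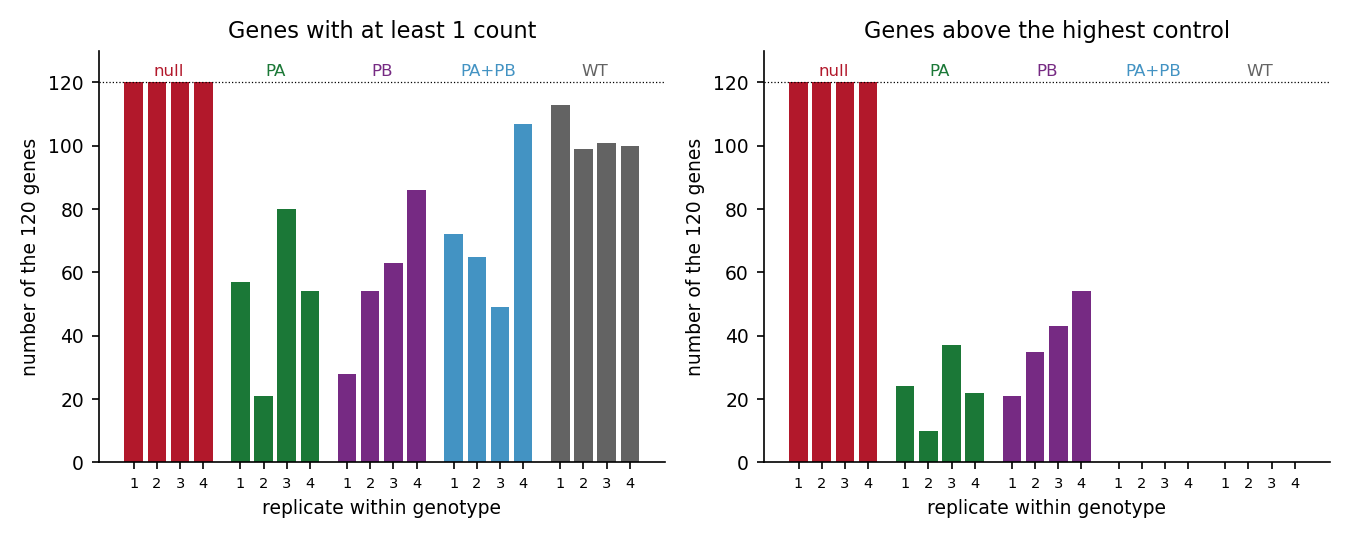
Number of the 120 genes with at least 1 count (left) and with a value above the highest of the 8 control libraries (right) in each library, by genotype. Between 21 and 86 genes have a count in a PA or PB library, and 10 to 54 lie above the highest control there, while the right-hand bars are 120 in null and 0 in control libraries by construction.

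In single libraries, 24, 10, 37 and 22 of the 120 genes were above the highest control in PA embryos, and 21, 35, 43 and 54 in PB embryos. As shares these were 20%, 8.33%, 30.8% and 18.3% of the 120 genes in PA, against 14.6%, 18.5%, 14.1% and 21.4% of the eligible genes. In PB they were 17.5%, 29.2%, 35.8% and 45%, against 22.5%, 22.1%, 21.2% and 27.7%, so the share was lower among the 120 genes than among the eligible genes in 2 PA libraries and 1 PB library. Few genes did so in all 4 libraries. In PA embryos, 1 gene had all 4 values above the highest control, against 2.02% of the eligible genes, and 61 had none (50.8%, against 59.1%). In PB embryos, 1 gene did, against 2.46%, and 28 had none (23.3%, against 47.7%). The highest control is one of the values that chose the genes, so these counts are descriptions.

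The gene above all controls in every PA library was *Naa35*, a subunit of the NatC N-terminal acetyltransferase. It had 52.5, 65.4, 50.9 and 59.1 CPM in null and 33.5, 48.6, 27.5 and 43.2 CPM in PA embryos, with 27.8, 54.5, 20.04 and 57.6 CPM in PB embryos, against at most 24.6 CPM in controls. The gene above all controls in every PB library was *Tektin-C*, which encodes a protein of ciliary and flagellar microtubules. It had 15.4, 17.6, 22.3 and 26.8 CPM in null, 7.30, 33.1, 0 and 94.8 CPM in PA and 50.7, 23.4, 28.3 and 22.1 CPM in PB embryos, against at most 6.26 CPM in controls. *Naa35* was named after its values were seen.

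The PA mean exceeded the null mean in 3 genes, which were *mthl8*, *Tektin-C* and *CG15177*. *mthl8*, a receptor of the Methuselah-like family, had 62.6 CPM in PA replicate 2 and no count in the other PA libraries, against 5.41 to 17.9 CPM in null embryos. *CG15177* had 18.5 CPM in PA replicate 4 alone. The PB mean exceeded the null mean in 7 genes, with *Hsp70Aa*, *CG15423* and *Tektin-C* the highest. *CG15423* had 48.4 CPM in PB replicate 3 and 1.93 CPM in replicate 2, against 3.43 to 10.3 CPM in null embryos. The means of *mthl8* and *CG15177* in PA and of *CG15423* in PB thus rested mainly on 1 library each.

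At the other end, *CG2233*, *CG9759* and *CG15480* were the genes with the highest null values among those with no count in PA embryos. *CG2233* had 69.8, 62.3, 27.2 and 40.2 CPM in null embryos, and *CG15480* had 58.7, 14.9, 21.6 and 22.4 CPM. In PB embryos *CG15480* had 16.2 CPM in replicate 4 alone. *CG18180*, *Jon25Bii* and *Nplp4* were those with no count in PB embryos. *Nplp4*, a neuropeptide-like precursor, had 28.1, 11.1, 12.7 and 18.4 CPM in null embryos, no count in PA or PB and at most 3.55 CPM in controls.

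Against the controls, the mean PA value on the log2(CPM + 1) scale differed by a median of -0.19 over the 120 genes and -0.36 over the eligible genes. The mean PB value differed by 0.07 and -0.38. The PB median over the 120 genes changed sign without PB replicate 3 (-0.10), without PB replicate 4 (-0.11) and with a prior of 0.1 CPM in place of 1 (-0.44), so it had no stable direction. The PA mean was above the control mean in 57 genes and the PB mean in 83, without a count over the eligible genes beside them. In the edgeR fit, no gene of the 120 was called higher in PA than in both controls (0.0183% of all genes tested), and 12 passed an unadjusted p of 0.05 (10% of the 120 genes, against 5.76% of all genes). DESeq2 called 2 (1.94% of all genes). None of the 120 was called higher in PB than in both controls by edgeR (0.165% of all genes), and 18 passed an unadjusted p of 0.05 (15.0%, against 8.9%). DESeq2 called 10 of the 120 (4.53% of all genes). The control values were used by the rule, and nothing is read from these counts.

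The comparison of PA with PB embryos used no value of the rule. The mean was higher in PB for 84 of the 120 genes and higher in PA for 30, with 6 at 0 in both. The matching count over the eligible genes is not given. Their median PB mean was also the higher, at 79.8% of the null mean against 67.0% for PA. The lean to PB is thus not particular to the 120 genes, and some PB means rested on a single library. In the edgeR fit, none of the 120 genes differed between PA and PB at an FDR under 0.05 (0.00917% of all genes, or 1 of 10904). At an unadjusted p of 0.05, 38 of the 120 genes passed (31.7%, against 21.4% of all genes), 13 of them higher in PA (9.0% of all genes). DESeq2 called 23 (19.2%, against 12.8% of all genes), 3 of them higher in PA (3.51% of all genes). The calls thus differed between the tools.

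The median fitted log2 fold change of PA over PB was -0.60 over the 120 genes and 0.14 over all genes tested. It changed sign without PB replicate 3 (0.09) and without PB replicate 4 (0.37), so the direction rested on these 2 libraries. It was -0.02 with 2 factors of unwanted variation and -0.14 without the 4 shallowest libraries, an alternative chosen after seeing the data. A fitted fold change of a gene without counts in one genotype depends on the prior count and is not a measured ratio.

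The 5 genes with the smallest p in the edgeR fit were all without a count in PA embryos. *snoRNA:Psi28S-3316a*, within *dom*, had 0, 14.1, 13.6 and 5.39 CPM in PB and 24.1, 14.7, 8.11 and 7.43 CPM in null embryos, and the edgeR test over all genes gave an FDR of 0.135. The mean of what 3 counts are worth in the 4 PA libraries was 0.588 CPM, and its PB mean was 14.1 times that limit. The limit covers counting error only and not the spread between libraries. *CG9759* had 48.3, 0, 29.0 and 0.545 CPM in PB embryos, a mean 33.1 times that limit (edgeR FDR 0.138). *CG2233* had 33.2, 11.1, 0 and 1.88 CPM in PB embryos, a mean 19.6 times that limit (edgeR FDR 0.138). *CG5810* had 26.3 and 1.39 CPM in PB replicates 3 and 4, and *CG31974* had 10.1 and 7.06 CPM in the same libraries, with no count in the other 2. *CG5810* and *CG31974* lie within *SNF4Agamma* and *ND-15*. In none of the 5 genes did every PB library have a count.

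**Figure D5:**
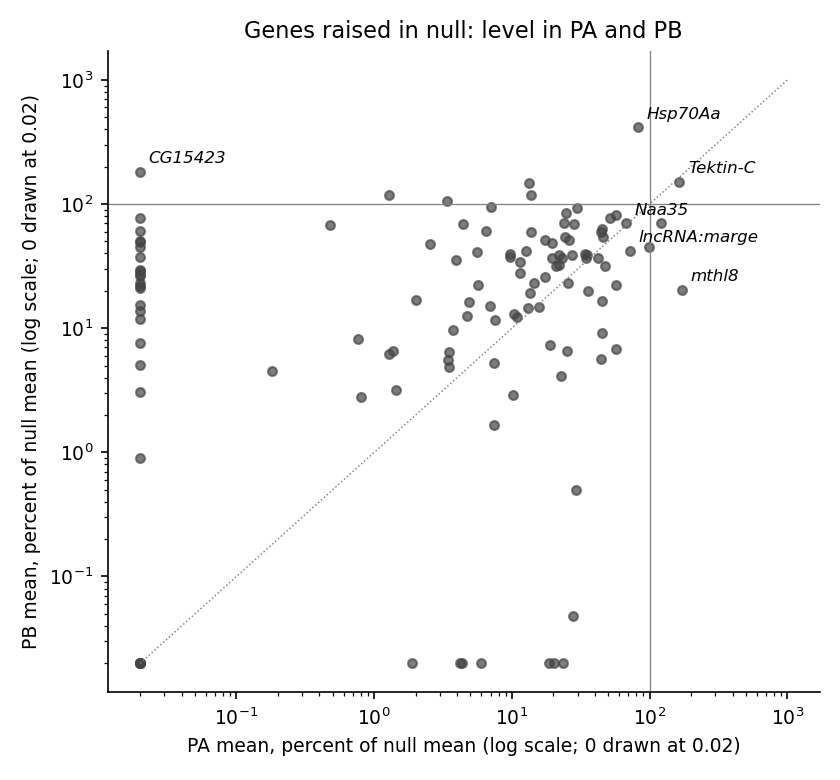
Mean PA value (x axis) and mean PB value (y axis) of the 120 genes as a percent of the mean null value, both on log axes with 0 drawn at 0.02, where the dotted line marks equal values and the solid lines 100%. The column at the left edge holds the 27 genes without a count in PA embryos, the row at the bottom the 13 without a count in PB embryos, and few genes reach the null level, with *Hsp70Aa* the highest in PB.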

How the data were processed

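RNA-seq of pooled whole embryos was analysed in 20 libraries. The deposited values are raw counts per gene, which the authors made with Trimmomatic, HISAT2 and htseq-count (0.11.1) with default parameters on build dm6 (BDGP6, annotation release 99). No per-gene length or depth normalization is part of the counts. The 5 summary values, GFP, Gal4 and 138 rRNA genes were left out, and CPM was computed on the remaining sum. Symbols and positions came from Ensembl release 115, which held 119 of the 120 genes. The members and all gene lists were chosen with earlier results of these data known.

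Counts were fitted with edgeR (4.0.16, quasi-likelihood) in R (4.3.3), after filterByExpr, with TMM and 1 factor of unwanted variation computed from replicates after RUVSeq. Calls needed a Benjamini-Hochberg FDR below 0.05 with an absolute log2 fold change of 0.5 or more, against both controls where named. DESeq2 (1.42.0) was an alternative. The code was tested on simulated data. Alternatives were other scalings, folds, count minimums, controls, numbers of factors and priors, a replicate block, and each library left out. Replicates were labelled as separate samples, and the study describes them as biological replicates. Depth varied widely within PA and PB, where 3 counts were worth 0.0909 to 1.81 CPM.

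Genes were named by rule: *Ada2b*, the 12 with the largest ratio of lowest null to highest control value, the 6 with the highest mean null CPM, the 3 highest and the 3 lowest relative to null in PA and in PB, the 5 with the smallest p between PA and PB, 2 on each side of the fold limit, and up to 4 of each list. Others are said to have been named after their values were seen, or are given as examples of their list.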

Additional observations from a re-analysis of the deposited data

Results flagged for a closer look

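Within groups of 4 libraries, a value was looked at again when its gap to the next library exceeded Dixon's critical share of the group's range, which chance gives in about 1 in 20 groups. Of 31 summaries per genotype, 3 stood out. PB replicate 4 had 33008038 counts on genes, far above the other PB libraries. WT replicate 1 had a count for 113 of the 120 genes, and the other WT libraries for fewer. PA replicate 2, the shallowest PA library, had a summed level of 1108 CPM over the 120 genes, against 1539 to 1581 CPM in the other PA libraries.

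Among the 49 named genes of the 120, 4 had 1 null library apart from the rest. *Jon99Ciii* (282 CPM), *Jon99Cii* (118.8 CPM) and *sofe* (62.6 CPM) stood out in null replicate 1, and *mthl8* (17.9 CPM) in null replicate 2. The same was found for 13 of 34 genes with differing values in PA, 17 of 41 in PB, 14 of 44 in PA+PB and 4 of 49 in WT libraries.

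Outside the counts on genes, the GFP transgene had more than 3 raw counts in 10 of 20 libraries and the Gal4 transgene in 12, although all embryos carried both.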

How the results depend on the processing

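The number of genes that met the rule was 120. It was 75 with TMM library sizes, 335 at a fold of 1.5, 48 at a fold of 3, 406 with WT alone and 240 with PA+PB alone as control, and 204 without the 4 shallowest libraries (PA 2, PB 1, PB 3 and PA+PB 1), an alternative added after seeing the data. Leaving out 1 library gave 120 to 204 genes, with 204 without PA+PB replicate 1 and 201 without PA+PB replicate 4. Leaving out a library can only relax the rule, so this says nothing about stability. Of the 4 shallowest libraries, only PA+PB replicate 1 enters the rule, so both values of 204 are the same result. With rRNA genes kept in the sum 117 met it, with at least 10 counts 166 and with at least 100 counts 101. The cause of the other shifts was not tested.

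Between PA and PB, DESeq2 called 23 genes against 0 by edgeR, and leaving out 1 library gave 0 to 2. The median log2 fold change of -0.60 ran from -1.13 to 0.37 with 1 library left out, and was 0.09 without PB replicate 3, -0.02 with 2 factors of unwanted variation and -0.14 without the 4 shallowest libraries. Higher than both controls, DESeq2 called 2 genes in PA and 10 in PB against 0 and 0 by edgeR. Leaving out 1 library gave 0 to 0 in PA and 0 to 2 in PB, and 2 in PB without these 4 libraries. All values above the highest control were found for 1 gene in PA, 2 with TMM, 2 to 5 with 1 library left out and 6 without these 4 libraries. In PB they were found for 1 gene, 2 with size factors, 2 to 8 with 1 library left out and 24 without these 4 libraries. Leaving out libraries can only raise such counts in PA and PB, so nothing is read from their rise. The median difference of PA from controls, -0.19, was -0.88 with a prior of 0.1 CPM and 0.00 without these 4 libraries. That of PB, 0.07, was -0.44 with that prior and ran from -0.11 to 0.32 with 1 library left out.

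Over 40 pairs of same-numbered libraries, correlations of their deviations ran from -0.46 to 0.48, and 7 were over 0.1. Pairs with different numbers were not compared, so whether replicate numbers pair the samples was not settled. With a replicate block, 0 of the 120 genes differed between PA and PB, and 0 were higher in PA or in PB than in both controls. The fit without the block also gave 0 such calls, so this says little. The median log2 fold change was -0.68 with the block.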
